A study of Mus musculus with 2 samples.

Results

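The genes of the CD4+ and CD8+ T cell lineage choice were examined in cultured splenic CD8+ T cells, as 10 genes of the 54532 in the count table. They are Zbtb7b, Gata3, Tox, Runx1, Runx3, Cbfb, Bcl11b and the coreceptor genes Cd4, Cd8a and Cd8b1. They were chosen by name, as ThPOK, the RUNX proteins and their partner, GATA3, TOX, BCL11B and the coreceptors, when it was already known that Zbtb7b was among the genes with the highest difference in this table. The measured differences of these genes are therefore given as a description, with no test.

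The cells were CD8+ T cells from the spleens of wild-type mice that the labels call ND, an abbreviation they do not explain. Both groups were cultured for 8 h, 1 in RPMI 1640, called complete medium here, and 1 in RPMI 1640 lacking methionine, an essential amino acid. Each group is 1 bulk RNA-seq library, so replicate spread is unknown for every difference given, and there is no p-value. The sources used here do not say how the cells were isolated, whether animals were pooled, whether the cultures shared animals, or whether a stimulus was added.

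Mature T cells of the helper lineage carry CD4 and those of the cytotoxic lineage carry CD8. The zinc finger protein ThPOK, encoded by Zbtb7b, is needed for the CD4+ fate and restrains cytotoxic genes, while RUNX3, bound to its partner CBFb, is known to silence both Cd4 and Zbtb7b in CD8+ cells. GATA3 and TOX act in the development of CD4+ thymocytes, and BCL11B maintains T cell identity.

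Runx1, Runx3 and Zbtb7b each hold RUNX recognition letters near 1 of their starts, shown here because RUNX proteins are the known repressors of Zbtb7b. A letter match does not show binding. Sequences are from RefSeq on GRCm38.p6, read 5′ to 3′ on the gene's strand, with the RUNX letters TGTGGT, the variant form TGCGGT, or the reverse complement of either, in capitals. The RefSeq table gave windows of 250 bases before to 50 after a start for 7 of the 10 genes, in 10 windows. Of all 32851 such windows, 22.4% hold 1 of these letter runs on either strand, as did 4 of the 10.
Runx1 distal start, chr16:92826025-92826054, minus strand: cataaacaACCACAgaACCACAagttgggt
Runx3 distal start, chr4:135120503-135120532, plus strand: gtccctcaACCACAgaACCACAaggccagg
Zbtb7b downstream start, chr3:89387672-89387921, minus strand: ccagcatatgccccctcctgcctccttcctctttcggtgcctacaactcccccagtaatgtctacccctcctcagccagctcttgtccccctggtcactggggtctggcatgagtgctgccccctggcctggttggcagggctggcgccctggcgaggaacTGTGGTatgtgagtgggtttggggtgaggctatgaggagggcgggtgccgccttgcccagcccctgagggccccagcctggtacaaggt

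The Runx1 and Runx3 stretches share a run of 18 bases, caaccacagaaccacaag, which holds the motif as a pair. In Runx1 the printed stretch lies 21 to 50 bases into the transcript, and in Runx3 it lies 142 to 113 bases before the start. Only 4 of the 32851 windows hold this run, those of Runx1, Runx2, Runx3 and Gm16225. The Zbtb7b stretch is the 250 bases before the start at position 89387671, inside the gene but in no annotated exon, and its motif begins 89 bases before that start. The other Zbtb7b window, whose start lies at 89393378, holds none of these letters, which says nothing about binding elsewhere in the gene. The other Runx1 window, with its start at 92697329, and the other Runx3 window, at 135152545, hold none either. The Cd8a window holds its motif 44 bases after the start. For GATA with an A or T before it and an A or G after it, on either strand, 1 of the 10 windows had a match, in Gata3, against 29.8% of all windows. The table of counts is per gene and does not tell which start was used.

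The complete-medium library held 14646527 counts and the methionine-free library 19647681, so 1 count was worth 0.0681 and 0.0510 CPM. CPM are counts per 1000000 after TMM scaling, and a ratio is the methionine-free over the complete-medium CPM. The interval after a ratio or a level is exact, at 95%, and holds only the error of counting; how far separate cultures would differ is unknown. The log2 difference was computed for 13041 genes whose mean over both libraries reached 10 counts. Its median was 0.04, and the middle 50% of genes lay between -0.39 and 0.40. All 10 lineage genes reached that mean, Cd4 exactly at it.

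At a size of 1.5-fold, 2 of the 10 genes were higher without methionine, Zbtb7b and Gata3, and 1 was lower, Runx1. Over all genes measured, 15.7% were higher and 18.0% lower by that size, so the number of genes past it is near the background. The other 7, among them Runx3 and both CD8 genes, lay within 1.5-fold. At 2-fold, Zbtb7b was higher and Runx1 lower, against 5.80% and 9.29% of all genes. The median log2 difference of the 10 genes was -0.13.

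**Figure D1:**
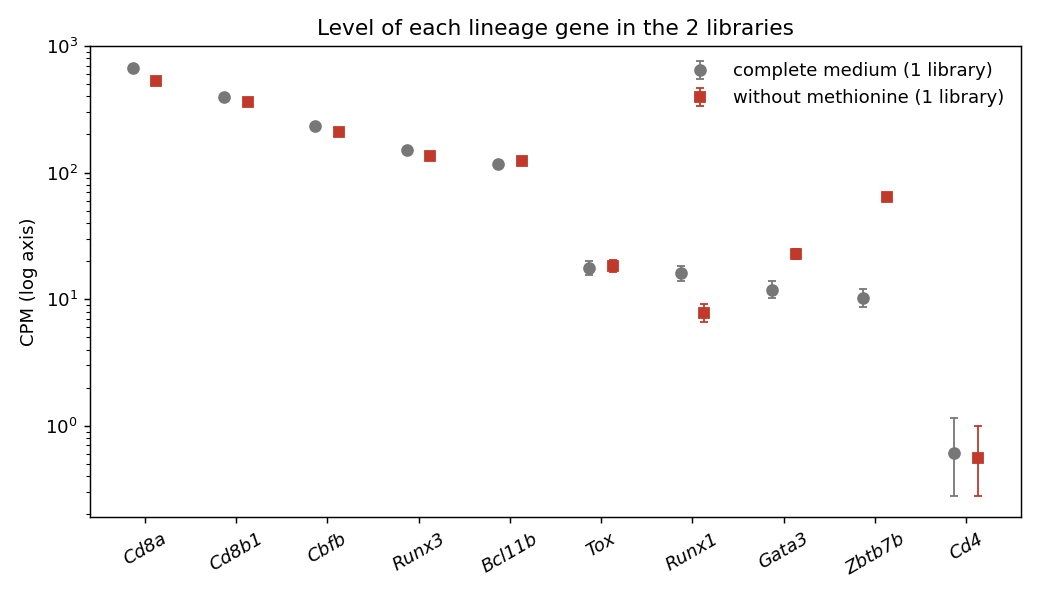
Level in CPM, on a log axis, of each of the 10 lineage genes in the complete-medium library (grey circles) and the methionine-free library (red squares), ordered by level in complete medium. Bars are exact 95% counting intervals, smaller than the symbol for most genes. Zbtb7b goes from 10.3 to 64.7 CPM, Runx1 goes from 16 to 7.81 CPM, and both Cd4 points lie below 1 CPM.

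Zbtb7b (ENSMUSG00000028042, chromosome 3, 89377644 to 89394776, minus strand, mm10) showed 151 counts in complete medium against 1267 in the methionine-free library. These are levels of 10.3 CPM (8.71 to 12.1) and 64.7 CPM (61.1 to 68.3), which do not overlap in counting error. The ratio was 6.29, with a counting interval of 5.31 to 7.50. Of the 13041 genes measured, 52 had a higher log2 difference than the 2.65 of Zbtb7b. Among the 9746 that are protein-coding genes averaging at least 50 counts, 6 did. Its level per kilobase of annotated exon went from 1.84 to 11.6 CPM per kb. That placed it above 48.5% of the genes with a count in complete medium and above 75.4% of those without methionine. Within the 10 genes it moved from the eighth level per kb to the sixth.

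An antisense transcript gene, Gm15417, begins inside Zbtb7b on the opposite strand and shares 116 exon bases with it. Gm15417 went from 5 to 27 counts, a ratio of 4.05 (1.54 to 13.5). No source used here says if reads were counted by strand, so reads over the shared bases cannot be assigned to either gene. Gm15417 held far fewer counts than Zbtb7b in both libraries. Of the 10 measured genes nearest to the Zbtb7b start, 5 on each side and at most 148 kb away, Gm15417 was the only 1 at least 1.5-fold higher. Another 2 were at least 1.5-fold lower, Cks1b and Adam15, so these counts are near the 15.7% and 18.0% of all genes. Cks1b, a gene of cell division, lay 23.6 kb upstream and went from 1063 to 436 counts. Adam15, of a membrane protease, had 58 and 42 counts. Flad1, the nearest gene upstream at 17.1 kb, had 395 and 724 counts, a ratio of 1.37 (1.21 to 1.55).

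**Figure D2:**
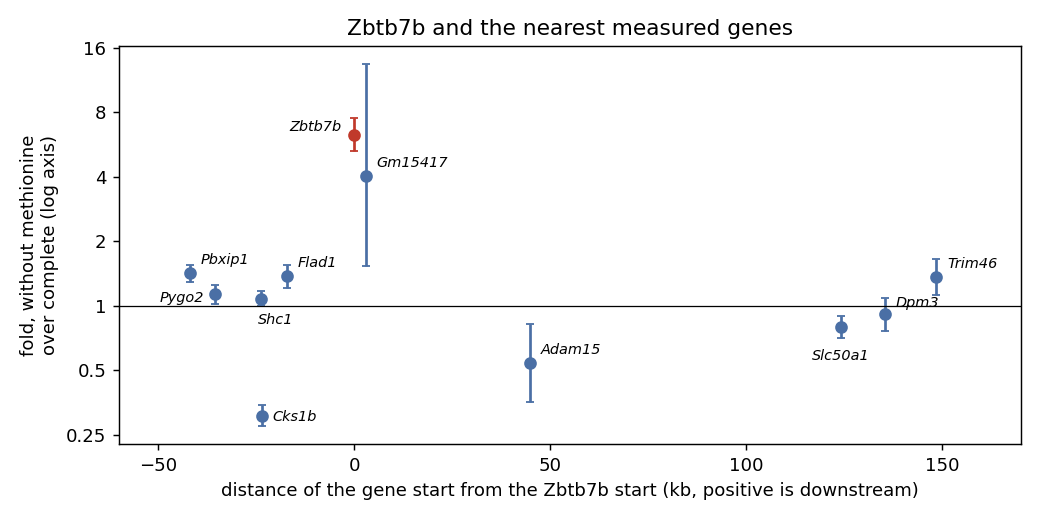
Ratio of methionine-free to complete-medium CPM, on a log axis, for Zbtb7b (red) and the 10 nearest measured genes (blue), against the distance between gene starts in kb. Bars are exact 95% counting intervals. Zbtb7b at 6.29 and its antisense gene Gm15417 at 4.05 stand above the other neighbours, which lie between 0.307 for Cks1b and 1.42 for Pbxip1.

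Zbtb7b has 2 close relatives, of which 1 was detected. Zbtb7a, whose protein LRF acts beside ThPOK in helper T cells, had 1486 and 2248 counts, a ratio of 1.13 (1.06 to 1.21). Zbtb7c had no count in either library, under a floor of 3 counts, and so has no ratio. Of the summed Zbtb7b and Zbtb7a counts, Zbtb7b held 9.22% (7.87 to 10.7, exact Clopper-Pearson) in complete medium and 36.0% (34.5 to 37.7) without methionine. This share does not depend on how the libraries were scaled. Zbtb16, the gene of PLZF, a factor of innate-like T cells in which ThPOK is also found, had 0 and 11 counts. Set against a floor of 3 counts per library, this is 2.75-fold higher, but the counting interval of the ratio starts at 1.88. The mean of Zbtb16 is below 10 counts.

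Gata3 (ENSMUSG00000015619, chromosome 2, 9857078 to 9890034, minus strand) encodes a zinc finger factor that acts upstream of ThPOK in thymocytes and drives type 2 helper cells. Its counts were 175 and 446, or 11.9 CPM (10.2 to 13.8) and 22.8 CPM (20.7 to 25). The ratio was 1.91 (1.60 to 2.29). Of the genes that overlap Gata3, 9230102O04Rik had 3 and 0 counts and Gm13256 had 0 and 1. The other overlapping genes with a count, Gm26626 at Runx1, Gm16224 at Runx3, and Gm22063 and Gm24629 at Cbfb, had at most 6 counts in either library. Gata1, an erythroid relative, had 32 and 67 counts, and Gata2 had none.

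Tox (ENSMUSG00000041272) encodes an HMG-box protein of CD4+ lineage development that is also known from exhausted CD8+ cells. It had 260 and 360 counts, or 17.7 CPM (15.6 to 20.0) and 18.4 CPM (16.5 to 20.4). The ratio was 1.04 (0.882 to 1.22), an interval that holds 1, so at this depth no difference could be detected. Its relative Tox4, a widely expressed gene, had a ratio of 1.27 (1.20 to 1.35), and Tox2 had 5 and 9 counts.

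Within the RUNX family, Runx1 was lower while Runx3 and Cbfb differed little. Runx1 (ENSMUSG00000022952, chromosome 16) encodes a factor that silences Cd4 in immature thymocytes. Its counts were 235 and 153, or 16 CPM (14 to 18.2) and 7.81 CPM (6.62 to 9.15). It was 2.05-fold lower (1.66 to 2.53). Runx3 (ENSMUSG00000070691, chromosome 4), the main RUNX gene of mature CD8+ cells, had 2223 and 2639 counts, or 151 and 135 CPM. It was 1.12-fold lower (1.06 to 1.19). Cbfb (ENSMUSG00000031885, chromosome 8) encodes the subunit that stabilises RUNX proteins on DNA. It had 3406 and 4133 counts, 1.10-fold lower (1.05 to 1.15). Runx2, chiefly known from bone, had 396 and 562 counts, a ratio of 1.06 (0.934 to 1.21).

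Runx3 thus remained the most abundant RUNX gene per length, at 30.3 and 26.9 CPM per kb, while Runx1 lay at 1.33 and 0.649 CPM per kb. Of the summed counts of the pair, Runx1 held 9.56% (8.43 to 10.8) in complete medium and 5.48% (4.66 to 6.39) without methionine. The ratio of Cbfb to Runx3 counts was 1.53 and 1.57. The change in that ratio, 1.02, had an interval of 0.95 to 1.10, so none was detected.

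Bcl11b (ENSMUSG00000048251, chromosome 12) encodes a zinc finger factor that recruits corepressors and holds T cells to their lineage. It had 1726 and 2441 counts, or 118 and 125 CPM, and the ratio of 1.06 (0.996 to 1.13) had an interval that held 1. Bcl11a, its relative in B cells and progenitors, had 2 and 0 counts.

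The coreceptor genes kept the pattern of CD8+ T cells in both libraries. Cd8a (ENSMUSG00000053977, chromosome 6, 71373427 to 71379173, plus strand) encodes the alpha chain of CD8. It had 9759 and 10328 counts, or 664 and 527 CPM, and was 1.26-fold lower (1.23 to 1.30). Cd8b1 (ENSMUSG00000053044), the beta chain gene that starts 50.6 kb before Cd8a, had 5839 and 7016 counts, or 398 and 358 CPM. It was 1.11-fold lower (1.07 to 1.15). The counts of Cd8a per count of Cd8b1 went from 1.67 to 1.47. The Cd8b1 share of the pair was 37.4% (36.7 to 38.2) and 40.5% (39.7 to 41.2), so the chains' transcripts differed slightly in how much lower they were.

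Cd4 (ENSMUSG00000023274, chromosome 6) showed 9 and 11 counts, or 0.613 CPM (0.280 to 1.16) and 0.561 CPM (0.280 to 1.0). The ratio was 0.916 (0.345 to 2.50), so a Cd4 level up to 2.50-fold higher lies within counting error. Cd8a counts were 1084 times those of Cd4 in complete medium and 939 times without methionine. Zbtb7b at a ratio of 6.29 thus stood beside a Cd4 level with no detected difference.

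Ratios between the lineage genes within a library are free of library scaling. Of the 45 pairs of the 10 genes, 30 had a change in ratio whose counting interval did not hold 1, and all 9 pairs with Zbtb7b were among them. Zbtb7b was known to be high when the genes were chosen, so its 9 pairs are no separate result. How many pairs of other genes would do the same was not computed. Zbtb7b per Runx3 count went from 0.0679 to 0.480, a 7.07-fold difference (5.91 to 8.50). As a share, Zbtb7b held 6.36% (5.41 to 7.42) of the summed Zbtb7b and Runx3 counts in complete medium and 32.4% (31.0 to 33.9) without methionine. Runx3 counts thus still exceeded Zbtb7b counts by 2.08 to 1. Zbtb7b against Runx1 had the highest change of any pair, 12.9-fold (9.80 to 16.9). In complete medium Runx1 had more counts than Zbtb7b, and without methionine Zbtb7b had 8.28 counts per Runx1 count. Runx1 has the longer annotated exons, and per kb Zbtb7b was already the higher in complete medium, at 1.84 against 1.33 CPM per kb. The pairs whose interval held 1 were 8 pairs with Cd4, 4 pairs with Tox besides Cd4, and Cbfb with Runx3, Cbfb with Cd8b1 and Cd8b1 with Runx3. Cd8b1, Cbfb and Runx3 thus had changes that counting error does not separate.

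Per kilobase of annotated exon, the order of the levels in complete medium was Cd8b1 at 268 CPM per kb, Cd8a at 183, Cbfb at 66.6, Runx3 at 30.3 and Bcl11b at 14.5. Gata3 at 3.0, Tox at 2.33, Zbtb7b at 1.84, Runx1 at 1.33 and Cd4 at 0.152 CPM per kb followed. The counting intervals of Gata3 (2.57 to 3.47) and Tox (2.05 to 2.63) overlapped, as did those of Tox and Zbtb7b (1.56 to 2.16). No other neighbours in that order overlapped. Without methionine the first 5 kept their order, and Zbtb7b at 11.6 CPM per kb stood next to Bcl11b at 15.4. Gata3 at 5.72, Tox at 2.41, Runx1 at 0.649 and Cd4 at 0.139 CPM per kb came after it, with no overlap between neighbours. Annotated exon length counts every isoform, so these levels understate genes with many exons that are not used.

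**Figure D3:**
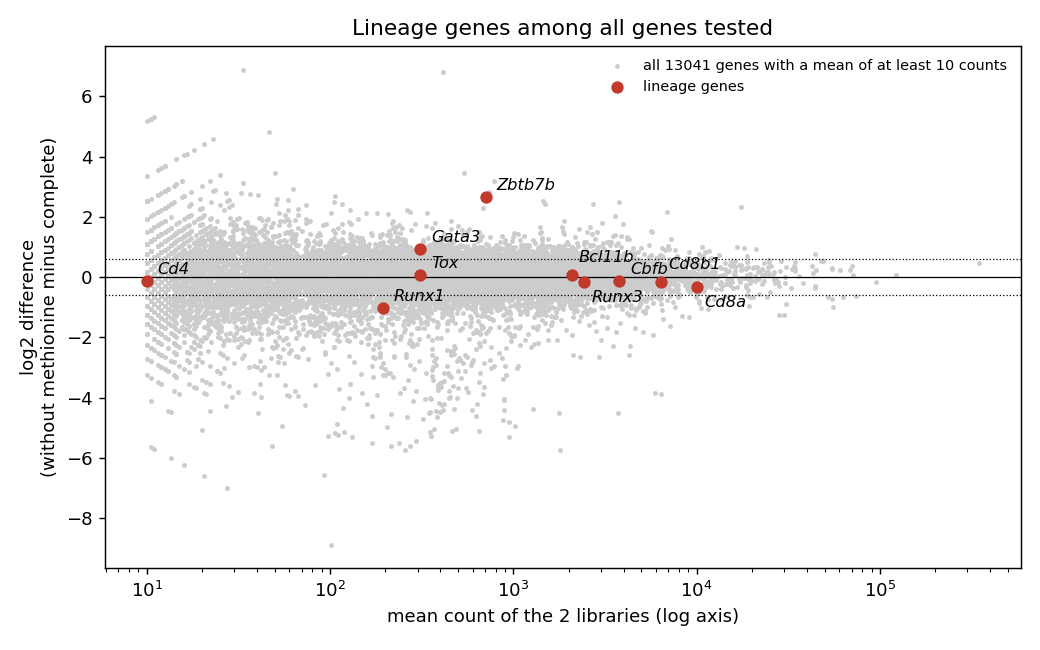
Log2 difference, methionine-free minus complete medium, against the mean count of the 2 libraries on a log axis, for all 13041 genes measured (grey) and the 10 lineage genes (red). Dotted lines mark 1.5-fold. Zbtb7b at 2.65 stands above most genes of its mean count, Runx1 lies at -1.03, and Cd4 sits at the minimum mean of 10 counts.

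Libraries of CD8+ T cells can hold RNA of other cells, some of which express ThPOK. All 12 T cell marker genes measured, among them Cd3e with 2138 and 3018 counts, lay within 1.5-fold. Of all genes, 15.7% were higher and 18.0% lower by that size. The summed level of the 12 was 3391 and 2897 CPM, 1.17-fold lower (1.16 to 1.18), and Zap70 was 1.47-fold lower. Cd4 itself lay at 0.613 and 0.561 CPM. Helper T cell genes, a list of 18 that leaves out Cd4, summed to 86.3 and 85.2 CPM. Its highest counts were those of 3 genes, Cxcr5 with 506 and 444 counts, Rora with 310 and 642 and Ccr4 with 185 and 193. Cd40lg, the CD40 ligand gene of helper cells, had 2 and 16 counts, a ratio of 6.0 (1.41 to 53.8), and Foxp3, of regulatory T cells, had 52 and 78, a ratio of 1.12 (0.782 to 1.63). B cell markers, a list of 6, summed to 13.5 and 7.50 CPM, with 4 of 6 lower and none higher, against 18.0% and 15.7% of all genes. Immunoglobulin constant region genes, outside that list, held 3039 and 2514 counts, or 0.0207% and 0.0128% of all counts. Of 8 myeloid markers 1 was measured, and the list summed to 5.99 and 6.84 CPM. The NK list of 4 summed to 2.38 and 2.04 CPM, and the gamma-delta T cell list of 5 to 6.67 and 5.36 CPM, with 1 of 3 measured genes lower. The erythroid list of 6 summed to 1.5 and 2.09 CPM, with at most 26 counts for any gene in a library. Its 2 measured genes went opposite ways, Hba-a1 9.74-fold higher and Hbb-bs 2.82-fold lower.

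Of 6 dendritic cell markers 3 were measured, and 2 of these, Zbtb46 and Flt3, were at least 1.5-fold higher, against 15.7% of all genes. The other markers had few counts. The list of 6 summed to 8.38 and 26.9 CPM, a ratio of 3.22 (2.64 to 3.95). Most of that sum came from 2 genes, both higher. The transcription factor gene Zbtb46 had 77 and 359 counts, a ratio of 3.49 (2.73 to 4.53), and the cytokine receptor gene Flt3 had 33 and 149, a ratio of 3.38 (2.31 to 5.10). Itgax had 8 and 16 counts, Xcr1 5 and 2, Clec9a 0 and 1 and Siglech 0 and 1. The part of dendritic cell RNA in the Zbtb7b difference was not tested. In bulk RNA, more cells of a type and more RNA per cell cannot be told apart.

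The submitters' protocol names a whole-RNA and an mRNA kit without saying which made which library. Of 9 identifiers of RNAs without a poly(A) tail, 7 had no count in either library. Rn7sk had 11 and 115 counts, a ratio of 7.84 (4.22 to 16.1), and Terc had 2 and 4. Only Rn7sk reached the minimum mean. Of all counts, ribosomal RNA genes outside the mitochondrial genome held 0.0146% in complete medium and 0.0111% without methionine. Small nucleolar RNA genes held 0.00953% and 0.00871%, and small nuclear RNA genes 0.00147% and 0.00171%. Protein-coding genes took 97.6% of the counts in both libraries. The part of library preparation in the differences of Zbtb7b, Gata3 and Runx1 was not tested.

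Other transcription factors and receptors linked to the CD4+ or CD8+ choice, listed with relatives of the 10 genes, lay on both sides. Of 26 listed genes, 20 were measured, with a median log2 difference of 0.16. Of these, 5 were at least 1.5-fold higher and 2 lower, against 15.7% and 18.0% of all genes. None reached 2-fold. Satb1, a chromatin organiser that acts on the enhancers of these lineage genes, went from 616 to 1229 CPM, a ratio of 2.0 (1.95 to 2.04) that fell just short of that size. Stat5a, of the interleukin-2 and interleukin-7 signal, was 1.96-fold higher (1.89 to 2.04). Tcf12 and Id2, whose proteins belong to the E protein and Id network, had ratios of 1.61 and 1.58. Gata1, the erythroid relative of Gata3, was also counted as higher, on 32 and 67 counts, a ratio of 1.57 (1.02 to 2.47). Id3 was 1.97-fold lower (1.64 to 2.38) and Zbtb32, a zinc finger gene of activated lymphocytes, 1.63-fold lower (1.53 to 1.74). Patz1, which encodes MAZR, a repressor of Zbtb7b in CD8+ cells, had 991 and 969 counts and was 1.36-fold lower (1.25 to 1.49). Myb, of the CD4+ path with GATA3, went from 679 to 1260 counts, a ratio of 1.39 (1.27 to 1.53). Tcf7 and Lef1, T cell factor genes, had ratios of 1.14 and 1.09.

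Corepressor genes, whose proteins work with RUNX and BCL11B, varied little. Of 20 listed and measured genes, 1 was at least 1.5-fold lower and none higher, against 18.0% and 15.7% of all genes. The median log2 difference of the list was close to 0. The lower gene was Aes, a short Groucho relative, at 1.58-fold (1.51 to 1.66). The Groucho gene Tle3 was 1.36-fold lower (1.28 to 1.44), Tle4 had a ratio of 1.37 (1.22 to 1.53), and Hdac1, a histone deacetylase gene, was 1.38-fold lower (1.31 to 1.45). Chd4, the NuRD remodeller gene, had 11024 and 19297 counts, a ratio of 1.31 (1.28 to 1.34).

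Genes of helper T cells lay on both sides, many of them on few counts. Of 18 listed genes, 11 were measured, with a median log2 difference of 0.17. Of these, 4 were at least 1.5-fold higher and 3 lower, against 15.7% and 18.0% of all genes. With a minimum mean of 50 counts, 1 was higher and 1 lower. Cxcr5, a homing receptor gene, was 1.52-fold lower (1.34 to 1.73), and Rora, a nuclear receptor gene, had a ratio of 1.55 (1.35 to 1.78). Il21, a helper cytokine gene, had 4 and 17 counts, a ratio of 3.19 (1.04 to 13), and the chemokine receptor gene Ccr8 had 24 and 72, a ratio of 2.25 (1.40 to 3.73). Bcl6 had 18 and 48 counts, a ratio of 2.0 (1.14 to 3.65). Cd40lg, under the minimum mean, had 2 and 16, a ratio of 6.0 (1.41 to 53.8). Il13 and Il1rl1 were the other genes of the list at least 1.5-fold lower. Il13 had 59 and 32 counts, and Il1rl1, the interleukin-33 receptor gene, had 22 and 6, or 4.89-fold lower (1.92 to 14.7). Il4 had 1 count in each library, and Il5 had 3 and 2.

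Cytotoxic and RUNX3-linked genes of CD8+ cells also split. Of 18 listed genes, 17 were measured, with a median log2 difference of 0.27. Of these, 6 were at least 1.5-fold higher and 4 lower, against 15.7% and 18.0% of all genes. Xcl1, a chemokine gene of CD8+ cells, had 47 and 238 counts, a ratio of 3.80 (2.77 to 5.31). Gzma, a granzyme gene, had 18 and 51, a ratio of 2.12 (1.22 to 3.86), and Ifng a ratio of 1.87 (1.80 to 1.94). Gzmb, the granzyme B gene, went from 38500 to 21464 counts, 2.39-fold lower (2.35 to 2.43), and Itgae, the CD103 gene that RUNX3 is known to activate, had 31 and 22 counts. The partner factor genes lay on either side of 1, Tbx21 with a ratio of 1.09 (1.03 to 1.14) and Eomes with 0.855 (0.808 to 0.904).

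**Figure D4:**
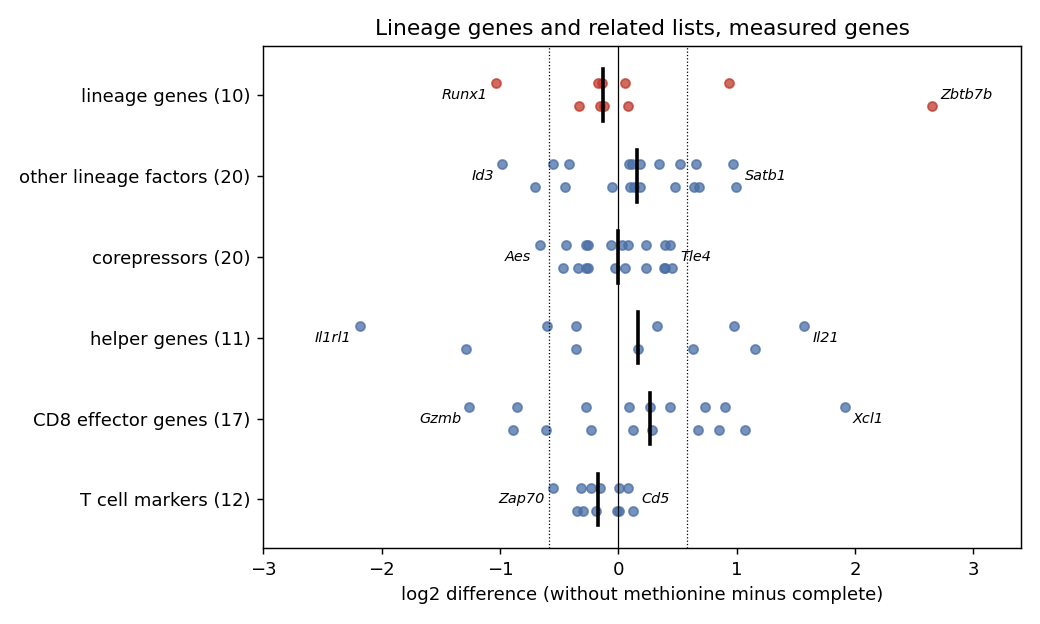
Log2 difference, methionine-free minus complete medium, of each measured gene in the lineage set (red) and in 5 related lists (blue), with the number of genes in brackets, the median as a black bar and 1.5-fold as dotted lines. The gene at each end of a list is named. The lineage genes range from -1.03 for Runx1 to 2.65 for Zbtb7b, which was known to be high when the set was chosen, with Gata3 next at 0.93. The 20 other lineage factors, among them relatives such as Gata1, range from -0.98 for Id3 to 1.0 for Satb1.

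With 2 libraries, likeness to a lineage gene is nearness in log2 difference only, and many genes share a value. The 3 protein-coding genes averaging at least 50 counts that lay nearest to Zbtb7b were Avil, Adgrg6 and Tas1r3, with ratios of 6.51, 6.20 and 6.05 on 22, 11 and 13 counts in complete medium. Nearest to Gata3 were Tbc1d17, Sssca1 and Pcmtd1, each at a ratio of 1.91. Nearest to Runx3 were Ttc7b, Adi1 and Slc25a16, each 1.12-fold lower.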

How the data were processed

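Counts per gene came from the deposited table, as whole numbers with no scaling by the authors. Reads were placed on mm10, as the submitters' processing notes list it; aligner, counter and strand setting were not given in the sources used here. Both columns were matched to the samples by title and description. Symbols, spans and exon lengths came from GENCODE M21 (GRCm38), which matched 54495 identifiers; 37 did not match.

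Libraries were scaled with TMM (edgeR 4.0.16, R 4.3.3), with factors of 1.003 and 0.997. The log2 difference used a prior count of 0.5 in proportion to depth, and set the calls at 1.5-fold and 2-fold; printed ratios use no prior count. Ratios have exact conditional binomial intervals, levels exact Poisson intervals and pairs exact conditional odds ratio intervals (scipy 1.17.1, Python 3.11.15), all at 95%. Sequencing reads without molecular identifiers are not independent molecules. Only the log2 difference and the ratio interval were tested on simulated data, which held counting error alone and were scaled to total counts.

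Genes and 12 lists were chosen with earlier results of these data known. A rule named the lineage genes, overlapping genes, the 4 largest differences per list, relatives, and the 3 nearest genes; marker lists beyond those shown are given as sums. Other genes, such as Patz1, Myb, Chd4, Tcf12, Id2, Cxcr5, Rora, Ccr4, Bcl6 and the neighbours of Zbtb7b, were named after their values were seen. Scaling with DESeq2 1.42.0 size factors, total counts, upper quartiles or T cell receptor genes was tried, as were other priors, minimums and thresholds.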

Additional observations from a re-analysis of the deposited data

How the results depend on the processing

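Zbtb7b kept a log2 difference between 2.64 and 2.74 over the scalings, prior counts and minimums tried, Gata3 between 0.92 and 1.03, and Runx1 between -1.04 and -0.94. Scaling to 7 T cell receptor genes moved the median of all genes to 0.13 and moved Runx3 to -0.075, Cbfb to -0.043, Bcl11b to 0.18, Cd8a to -0.24 and Cd8b1 to -0.057, beyond their counting intervals. Under it Gata3 was past 2-fold and Runx1 was not. At 2-fold, 1 of the 10 lineage genes was higher instead of 2. Over all genes measured, 2050 lay 1.5-fold or more above and 2346 below. Without a minimum these were 4898 and 6312, with a minimum mean of 50 counts 1366 and 1535, and at 2-fold 756 and 1211. With that minimum Cd4 gave no value. No paired analysis was possible because each medium has 1 library. The numbers in the column names, 2 and 1, do not match. With 1 library per medium, no library could be left out.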

Other observations

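ThPOK belongs to the ZBTB family, proteins with a BTB domain and zinc fingers that mostly repress transcription. Of 40 protein-coding genes with a Zbtb symbol, chosen as a group after the values were seen, 36 had a mean of at least 10 counts. Of these, 10 lay 1.5-fold or more above their complete-medium level and 4 below, against 15.7% and 18.0% of all genes, with a median log2 difference of 0.37. At 2-fold, 4 were higher and 1 lower, against 5.80% and 9.29% of all genes. Zbtb7b had the highest difference of the 36, and it was known to be high when the group was formed. Zbtb46, with 77 and 359 counts, had a ratio of 3.49 (2.73 to 4.53). Zbtb10, with 227 and 913 counts, had a ratio of 3.01 (2.60 to 3.50), and Zbtb4, with 277 and 745, a ratio of 2.02 (1.75 to 2.32). Zbtb8a, with 138 and 88 counts, was 2.09-fold lower (1.59 to 2.77), and Zbtb38, whose protein binds methylated DNA, was 1.96-fold lower (1.68 to 2.29).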
